A study of Mus musculus with 2 samples.

Results

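The 9 genes described here are the metallothioneins Mt1 and Mt2 and 7 genes of the oxidative stress response, Hmox1, Nqo1, Txnrd1, Gclm, Srxn1, Duox2 and Duoxa2, measured in single cells of mouse lymph nodes. They are 9 of 24761 genes that had a transcript in the cells analysed, and they were chosen by name, with earlier results of these data in view, among them the level of Mt1 and Mt2 in 1 class of lymphatic endothelial cell. Differences between niches and between genotypes are therefore given as descriptions. The tissue was the tumour-draining inguinal lymph node. The WT library was made from 13 pooled nodes of wild-type mice, and the library labelled ATG5 KO from 9 pooled nodes of mice whose lymphatic endothelial cells (LECs) lack Atg5, a gene of autophagosome formation. The driver of the deletion, the age and sex of the mice and the tumour model are not given in the sources used here. In both groups CD31+ endothelial cells free of CD45 and Ter119 were sorted and mixed with sorted CD45+ cells of the immune system. The proportion of endothelial to immune cells was therefore set by the sort. The markers named for it do not part LECs from blood endothelial cells (BECs). Each genotype gave 1 library, so no difference between them has a replicate check, animals cannot be told apart, and all intervals cover counting error only.

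Metallothioneins are small cysteine-rich proteins that bind zinc and copper. Their genes are switched on by the zinc sensor MTF1, which binds metal response elements (MREs), and also by glucocorticoids and by inflammatory signals. Hmox1, Nqo1, Txnrd1, Gclm and Srxn1 encode enzymes of heme breakdown, quinone reduction, thioredoxin recycling, glutathione synthesis and peroxiredoxin repair, and are textbook targets of NRF2, which binds antioxidant response elements (AREs). Duox2 is an NADPH oxidase that makes hydrogen peroxide at the cell surface, and Duoxa2 is the partner that carries it there. In the lymph node, LECs line the sinuses: ceiling cells form the outer wall of the subcapsular sinus, floor cells separate it from the cortex, and medullary and paracortical cells line the deeper sinuses, with Marco and Lyve1 among their markers.

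The WT library held 3856 clustered cells with a median of 3514 unique molecular identifiers (UMIs) per cell, and the ATG5 KO library 4140 cells with a median of 3347. LECs numbered 716 and 212. They comprised 124 and 8 floor-like, 383 and 72 ceiling-like and 84 and 91 medullary or paracortical-like cells in the WT and the ATG5 KO library, besides 42 and 9 cycling and 83 and 32 unnamed cells. Levels are given as CPM, the UMIs of a gene per 1000000 UMIs of the class, with mitochondrially encoded genes left out of the total. The class names stand for resemblance to markers. Coch stood at 2342 CPM in floor-like, Ackr4 at 2380 CPM in ceiling-like and Lyve1 at 7245 CPM in medullary or paracortical-like LECs. The last class joins sub-clusters 0 and 8, which were unlike in other markers. Lyve1 stood at 8176 and 3928 CPM in them. Marco had 0 UMIs in sub-cluster 0 and 61.8 CPM in sub-cluster 8, and the ceiling marker Ackr4 stood at 68.5 and 1364 CPM. Atg5 itself stood at 40.8 CPM in WT and 44.1 CPM in ATG5 KO LECs, but counts at the 3′ end need not reflect the deleted part and do not check the label. Cells with Xist or with Y-linked transcripts occurred in both libraries, and among LECs that could be assigned, 422 were male-like and 170 female-like in the WT library against 89 and 86 in the other. The libraries shared 14 barcodes, 4 of these cells being LECs, and without them the Mt2 ratio between the libraries given below for LECs was 0.120.

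All 9 genes were found in the annotation and 8 had a promoter window in RefSeq. Mt1 and Mt2 lie side by side on the plus strand of chromosome 8 (GENCODE genes at 94179082-94180327 and 94172664-94173568 in GRCm38, the assembly also called mm10), with RefSeq starts 6471 bases apart. Duox2 and Duoxa2 are divergent neighbours on chromosome 2, at 122279247-122298449 on the minus strand and 122298900-122302885 on the plus strand, with RefSeq starts 673 bases apart. The upstream windows of Mt1, Mt2 and Duoxa2 are printed because the results turn on these 2 gene pairs; the Duox2 window is not printed, since most of it lies inside the GENCODE gene. They come from RefSeq on GRCm38.p6, all on the plus strand, at chr8:94178839-94179081, chr8:94172368-94172617 and chr2:122298650-122298899. Capitals mark MRE cores (TGCACNC or TGCGCNC), ARE cores (TGAC and GC with any 3 bases between) and TATAAA, each on either strand.
Mt1: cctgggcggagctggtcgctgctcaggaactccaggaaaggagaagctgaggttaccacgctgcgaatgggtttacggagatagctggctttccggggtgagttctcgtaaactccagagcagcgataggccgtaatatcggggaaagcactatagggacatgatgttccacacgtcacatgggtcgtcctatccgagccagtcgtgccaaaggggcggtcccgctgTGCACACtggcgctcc
Mt2: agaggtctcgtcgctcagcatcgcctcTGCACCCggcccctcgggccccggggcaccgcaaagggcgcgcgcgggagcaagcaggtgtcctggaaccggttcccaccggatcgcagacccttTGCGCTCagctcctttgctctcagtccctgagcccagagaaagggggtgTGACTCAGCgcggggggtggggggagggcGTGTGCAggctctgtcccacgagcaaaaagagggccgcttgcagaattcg
Duoxa2: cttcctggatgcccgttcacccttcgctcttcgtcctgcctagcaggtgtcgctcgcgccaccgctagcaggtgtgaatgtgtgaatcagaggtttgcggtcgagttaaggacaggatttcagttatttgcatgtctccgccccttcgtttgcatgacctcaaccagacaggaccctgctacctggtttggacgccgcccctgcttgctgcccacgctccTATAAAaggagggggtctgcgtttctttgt
The 250 bases before the RefSeq start held 1 MRE core in Mt1 and 3 in Mt2, which also held 1 ARE core. At least 1 MRE core stood in 21.4% of 32851 windows of this length and at least 3 in 0.770%. With the 50 bases after the start included, Mt1 held 3 MRE cores, Mt2 4 and Gclm 3, and at least 3 stood in 1.31% of such windows. An ARE core, present in 10.2% of the 250-base windows, was found in Mt2, in Gclm, where it overlapped 1 of 2 MRE cores, and at 1 of the 3 starts of Txnrd1. TATAAA, present in 12.4% of the windows, stood in those of Nqo1 and Duoxa2. A match is a match of letters, and an absent one says only that these letters are not in the window.

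Among LECs, Mt1 and Mt2 transcripts lay in the floor-like and in the medullary or paracortical-like cells and were almost missing from ceiling-like cells. In the WT library Mt1 stood at 274 CPM (95% interval 243-309, 274 UMIs) in floor-like, 139 CPM (112-172, 88 UMIs) in medullary or paracortical-like and 0.952 CPM (3 UMIs) in ceiling-like LECs. Mt2 followed the same order, with 657 CPM (608-709, 656 UMIs), 358 CPM (312-407, 226 UMIs) and 4.44 CPM (14 UMIs). These intervals take UMIs as independent, but 9 of the 84 medullary or paracortical-like WT cells held 95.2% of the Mt1 and Mt2 UMIs of their class. The order of this class and the floor-like class is thus not read from the intervals. Mt1 was 288 times (97.6-1406) and Mt2 148 times (87.5-272) as high in floor-like as in ceiling-like LECs. Floor-like cells held 74.1% of the Mt1 and 72.8% of the Mt2 UMIs of WT LECs. In the ATG5 KO library the 8 floor-like cells held 4 Mt1 and 7 Mt2 UMIs, or 60.5 and 106 CPM, while its 72 ceiling-like cells held 2 and 0. The ratio of floor-like to ceiling-like cells was 15.6 (2.23-172) for Mt1 and at least 18.2 for Mt2, taking 3 counts for the count of 0. Among all genes with at least 20 UMIs, 10.6% were at least 2-fold higher and 12% at least 2-fold lower in floor-like than in ceiling-like WT LECs. By that measure 2 of the 9 genes, Mt1 and Mt2, were higher and 3, Nqo1, Duox2 and Duoxa2, were lower; the floor level of Mt1 and Mt2 was part of how the genes were chosen, and nothing is read from their count. Between medullary or paracortical-like and ceiling-like cells, 7.5% of genes were at least 2-fold higher and 7.22% lower in WT, where Mt1 and Mt2 were higher and Duox2 and Duoxa2 lower. In ATG5 KO 7.54% were higher and 5.58% lower, and of 5 of the genes tested Mt1 and Hmox1 were higher and Nqo1 lower.

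**Figure D1:**
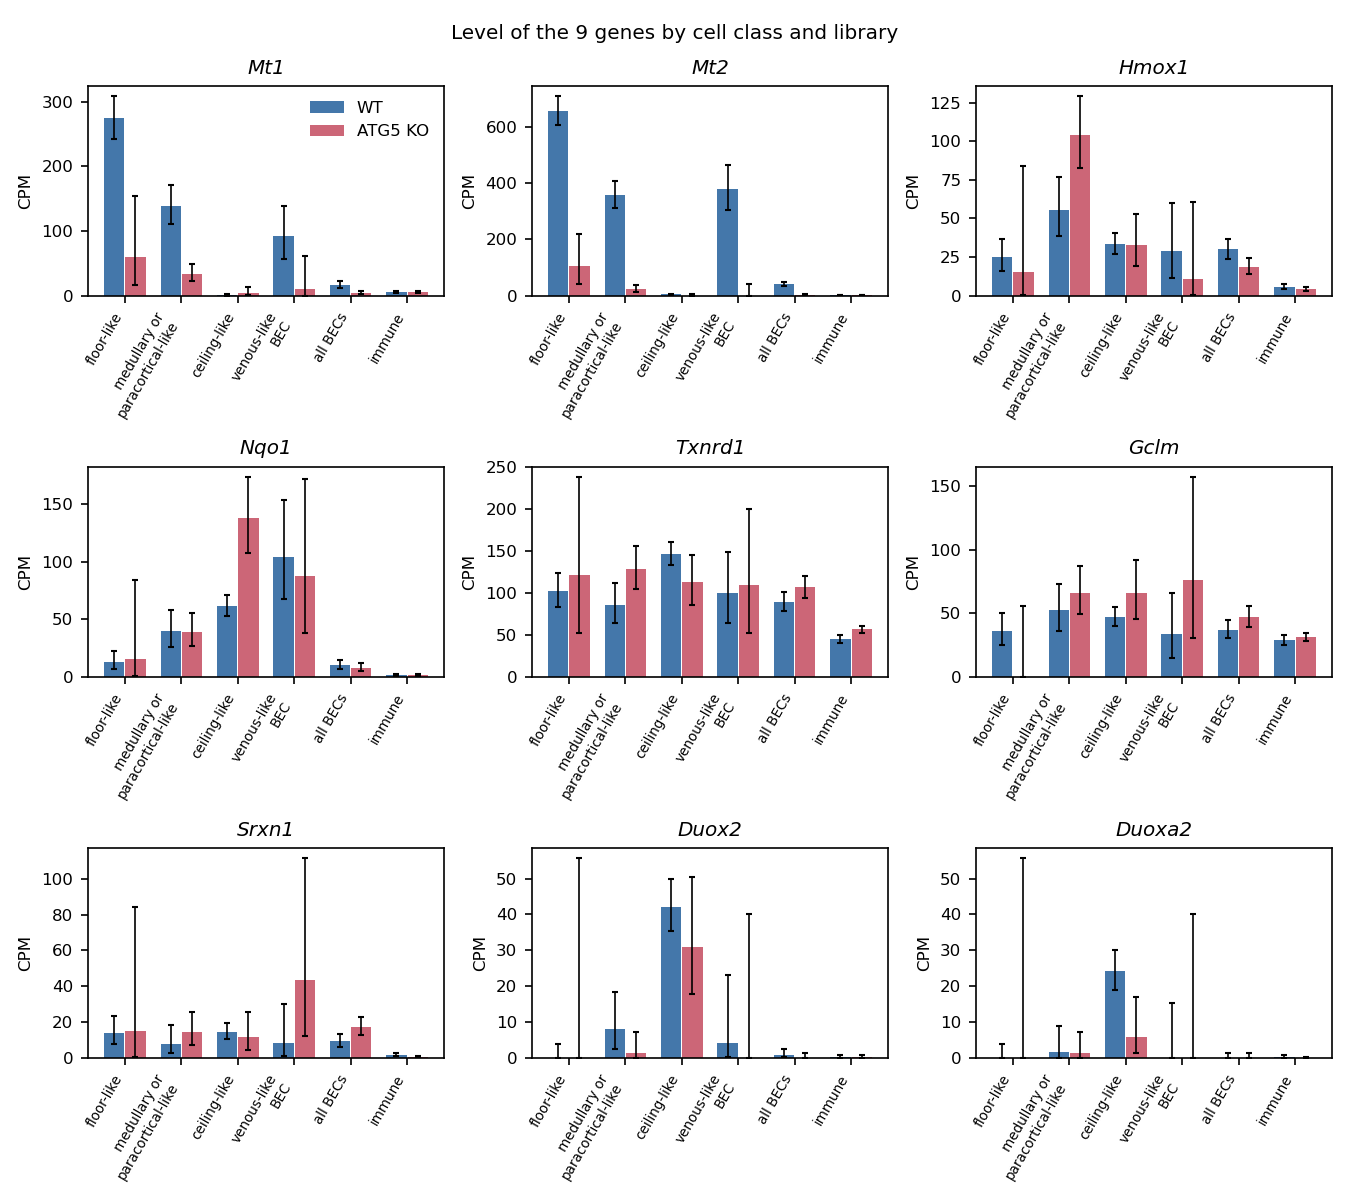
Bars give the level of each of the 9 genes in CPM in 3 LEC classes, venous-like BECs, all BECs and immune cells, for the WT and the ATG5 KO library, with 95% Poisson intervals. Mt1 and Mt2 are high in WT floor-like cells (274 and 657 CPM), Duox2 and Duoxa2 in ceiling-like cells, and the 8 floor-like cells of the ATG5 KO library give wide intervals.

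The metallothionein UMIs were unevenly spread over cells. Of the 124 WT floor-like cells, 42 held no UMI of either gene, the median cell held 2, and the 13 cells with the most held 64.4% of the class's 930 UMIs. Sub-cluster 13, a floor-like group of 16 WT cells led by Mt2, Mt1, Cxcl1 and Cd14, held 568 of them, with 4 to 139 UMIs in every cell and a median of 28. Its levels were 1170 CPM for Mt1 and 3612 CPM for Mt2, and it kept the floor markers Coch (800 CPM), Ccl20 (783 CPM) and Madcam1 (438 CPM). Without it, the other 108 floor-like cells stood at 154 CPM (129-182) for Mt1 and 258 CPM (226-294) for Mt2, so that Mt2 was 58.1 times as high as in ceiling-like cells. Sub-cluster 13 contained no cell of the ATG5 KO library, and among its cells with a sex assignment 13 were male-like and 0 female-like. This make-up was not particular to it: ceiling-like sub-cluster 6 had 76 male-like, 0 female-like and 0 ATG5 KO cells.

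In the medullary or paracortical-like class the UMIs were held by fewer cells. In the WT library 65 of 84 such cells held neither gene, and 3 cells of sub-cluster 8, with 142, 80 and 33 UMIs, held 87.9% of the 290 UMIs in that sub-cluster. Sub-cluster 8, led by Mt2, Kazn, Mt1, Apoe and Marco among other genes, had 40 WT and 5 ATG5 KO cells; the other medullary or paracortical-like group, sub-cluster 0 led by H19, Mrc1 and Lyve1 among others, had 44 and 86. The 5 ATG5 KO cells of sub-cluster 8 held 13 Mt1 UMIs and 1 Mt2 UMI, all of them in 1 cell. In sub-cluster 0 Mt1 stood at 39.1 CPM in WT and 17.6 CPM in ATG5 KO cells. The class of the high cells was not firm: under a stricter limit of 10% mitochondrial UMIs per cell and a new clustering, 13 WT cells of sub-cluster 8, with 279 of its UMIs, fell among the floor-like cells.

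**Figure D2:**
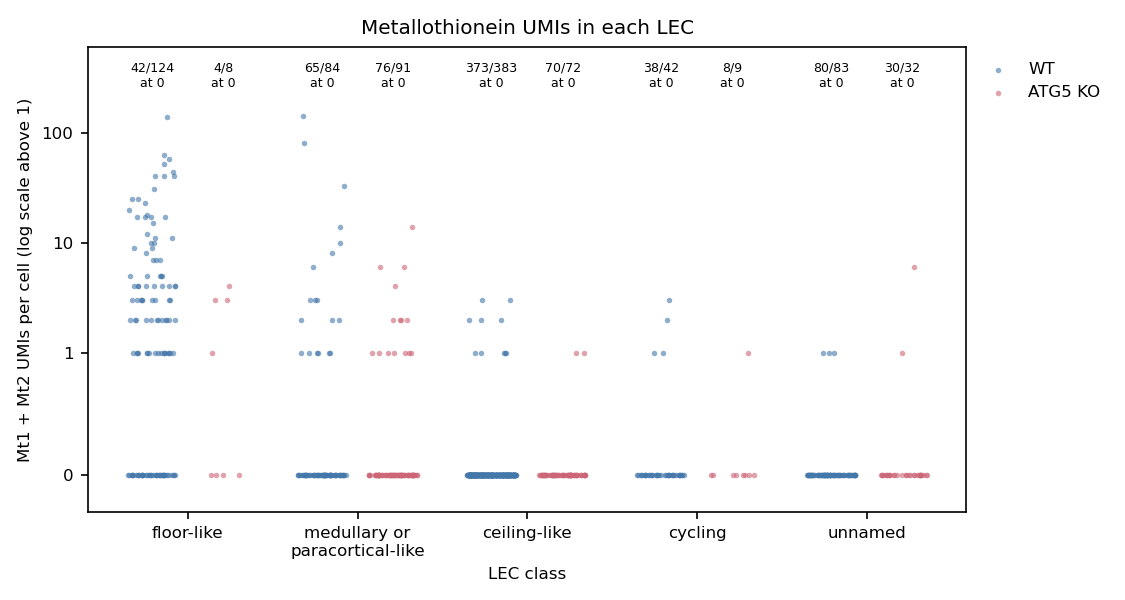
Each point is 1 LEC, with its summed Mt1 and Mt2 UMIs on a scale that is logarithmic above 1, by LEC class and library; the fractions on top give the cells at 0. In the WT library 42 of 124 floor-like and 65 of 84 medullary or paracortical-like cells are at 0, and the highest cells of these classes hold 139 and 142 UMIs.

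Over all LECs, metallothionein transcripts were fewer in the ATG5 KO library. Mt1 stood at 64.2 CPM (370 UMIs) in WT and 22.7 CPM (36 UMIs) in ATG5 KO LECs, a ratio of 0.353 (0.244-0.498). Mt2 stood at 156 CPM (901 UMIs) and 18.9 CPM (30 UMIs), a ratio of 0.121 (0.0811-0.174). The difference in the make-up of the LECs enters these ratios, since floor-like cells were 124 of 716 and 8 of 212. Without sub-cluster 13 the ratios were 0.554 (0.379-0.790) for Mt1 and 0.226 (0.151-0.327) for Mt2. Without the 4 sub-clusters that had under 1 ATG5 KO cell per 10 WT cells, among them both floor-like ones, the ratio was 0.739 (0.478-1.11) for Mt1, an interval that includes 1, and 0.212 (0.132-0.326) for Mt2. Within floor-like sub-cluster 1 it was 0.394 (0.106-1.03) for Mt1, from 135 and 4 UMIs, and 0.410 (0.163-0.859) for Mt2, from 227 and 7 UMIs.

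Within the medullary or paracortical-like class the ratio of the ATG5 KO to the WT library was 0.243 (0.150-0.379) for Mt1 and 0.0690 (0.0408-0.110) for Mt2. Within sub-cluster 8 it was 1.45 (0.738-2.64) for Mt1 and 0.0382 (0.000964-0.215) for Mt2, from the few high cells. Within sub-cluster 0, which held most of the ATG5 KO cells, the ratio was 0.451 (0.195-1.04) for Mt1 and 0.875 (0.383-2.12) for Mt2, and both intervals include 1. With the 10% mitochondrial limit, which moved the high cells to another class, the class ratios were 1.06 (0.549-2.03) and 1.25 (0.516-3.08).

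Other features also differed between the libraries. Over LECs, male-like cells had higher levels of both genes than female-like cells. In WT LECs Mt2 stood at 181 CPM (167-195) in 422 male-like cells and 27.4 CPM (19.7-37.2) in 170 female-like cells, and in ATG5 KO LECs at 32.0 CPM (22 UMIs) and 7.32 CPM (5 UMIs). In floor-like sub-cluster 1 of the WT library, which holds both kinds, the Mt2 values were 314 CPM (266-368) and 143 CPM (99.8-199). Mt1 in medullary or paracortical-like WT cells was an exception, at 90.6 and 90.8 CPM. The ratio between the libraries was 0.177 (0.110-0.270) for Mt2 among male-like LECs and 0.267 (0.0822-0.674) among female-like LECs, and 0.512 (0.328-0.768) and 0.328 (0.114-0.779) for Mt1. Of 32 dissociation and immediate early genes with at least 20 UMIs, 18 were at least 2-fold lower in ATG5 KO LECs (5.94% of all genes) and none at least 2-fold higher (4.32%), with a median log2 ratio of -1.11 against 0.03 over all 11646 genes. Among them Fos stood at 3544 CPM in WT and 1519 CPM in ATG5 KO LECs. The others of the most abundant were Jun (0.529), Zfp36 (0.325), Egr1 (0.395) and Jund (0.469). In ceiling-like LECs 17 of 32 such genes were at least 2-fold lower in ATG5 KO (6.05% of all genes). In medullary or paracortical-like LECs 4 of 29 were lower (4.73%). None was at least 2-fold higher in either class (4.68% and 3.75%). Between floor-like and ceiling-like WT LECs 11 of 32 were lower and 1 higher (12% and 10.6%). Of 16 glucocorticoid response genes, with a median log2 ratio of -0.43, 0 were at least 2-fold higher and 3 lower, Cdkn1a (0.363), Zbtb16 (0.245) and Per1 (0.454), and the most abundant ones, Dusp1, Nfkbia and Cebpd, had ratios of 0.563, 0.571 and 0.746. Of 15 hypoxia genes Vegfa was lower (0.264, 0.172-0.391), with a median log2 ratio of -0.01 and ratios of 0.990, 1.06 and 1.18 for Aldoa, Ndrg1 and Epas1. The make-up of the LECs enters the ratios of these lists too. Cdkn1a and Zbtb16 were among the leading genes of ceiling-like sub-cluster 6, with 88 WT and 0 ATG5 KO cells. Fosb, Egr1 and Atf3 were among those of ceiling-like sub-cluster 5, with 85 and 4 cells. The part that the sex of the mice, these stress genes or the handling of the pools has in the metallothionein difference was not tested.

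Among BECs, metallothioneins were highest in the venous-like cells, a group led by Igfbp5, Cytl1 and Ctsh. In the WT library its 39 cells stood at 91.6 CPM (22 UMIs) for Mt1 and 379 CPM (305-465, 91 UMIs) for Mt2, against 10.3 and 12.1 CPM in all other BECs. The Mt2 UMIs were in 8 of the 39 cells, 47 of them in 1 cell. In that comparison 8.41% of genes were at least 2-fold higher and 15.5% lower, and of 7 of the genes tested Mt1, Mt2 and Nqo1 were higher and 0 lower. The Mt2 interval overlapped that of medullary or paracortical-like LECs. The 15 venous-like cells of the ATG5 KO library held 1 Mt1 and 0 Mt2 UMIs, a ratio of at most 0.0863 for Mt2 if 3 counts are taken for 0. Over all BECs, the ratio of ATG5 KO to WT was 0.270 (0.131-0.515) for Mt1, from 50 and 12 UMIs. For Mt2 it was 0.0727 (0.0307-0.148), from 124 and 8 UMIs. Free RNA, described below, held 21.1 CPM of Mt1 and 33.9 CPM of Mt2 in the WT library, above the other WT BECs. In the ATG5 KO library it held 2.74 and 3.20 CPM, near the 4.55 and 3.03 CPM of BECs. The venous-like WT cells, with 91 of the 124 Mt2 UMIs of WT BECs, lay above the free RNA of their library for both genes. For the remaining BECs, these levels do not separate transcripts of BECs from free RNA.

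Immune cells held few metallothionein UMIs in either library. Mt1 stood at 5.52 CPM (44 UMIs) in the WT and 6.13 CPM (71 UMIs) in the ATG5 KO library, a ratio of 1.11 (0.752-1.66), and Mt2 at 2.51 and 1.55 CPM, a ratio of 0.619 (0.309-1.23). Most of the Mt1 UMIs were in rare myeloid cells. Conventional dendritic cells stood at 97.8 CPM in WT and 76.0 CPM in ATG5 KO for Mt1, and monocytes or macrophages at 76.8 and 42.4 CPM. The 15 plasma cells of the ATG5 KO library held 19 Mt1 UMIs (88.9 CPM) and the 7 of the WT library 0. B cells, at 0.570 and 0.727 CPM, held 2 and 3 Mt1 UMIs. Barcodes with 10 to 100 UMIs, which hold free RNA, had 21.1 CPM of Mt1 and 33.9 CPM of Mt2 in the WT library and 2.74 and 3.20 CPM in the other, so in the WT library B cells and ceiling-like LECs lay below the free RNA and floor-like cells above it.

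Hmox1, the heme oxygenase, was spread over LECs, BECs and macrophages. In WT LECs it stood at 33.0 CPM (190 UMIs) and in ATG5 KO LECs at 67.4 CPM (107 UMIs), a ratio of 2.04 (1.60-2.60). The classes differed: medullary or paracortical-like cells had 55.4 CPM (38.6-77.0) and 104 CPM (82.4-129), a ratio of 1.88 (1.25-2.88), whereas ceiling-like cells had 33.3 and 33.0 CPM, a ratio of 0.990 (0.556-1.66). Medullary or paracortical-like cells were 84 of 716 WT and 91 of 212 ATG5 KO LECs, and with equal weights for this class and the ceiling-like class the ratio was 1.36. Within sub-cluster 0, where Hmox1 was high in both libraries (81.0 and 92.3 CPM), the ratio was 1.14 (0.728-1.83). Among female-like cells the class ratio was 0.946 (0.527-1.77) and among male-like cells 2.03 (1.04-4.05). The 5 ATG5 KO cells of sub-cluster 8 held 12 Hmox1 UMIs, 10 of them in 1 cell, against 6 in 40 WT cells.

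In BECs Hmox1 lay the other way, at 29.96 CPM (89 UMIs) in WT and 18.6 CPM (49 UMIs) in ATG5 KO, a ratio of 0.620 (0.428-0.888). Capillary-like BECs held 12 and 0 UMIs in 64 and 22 cells, and cycling BECs 14 and 3. Among immune cells, Hmox1 was a gene of monocytes and macrophages, at 154 CPM (104-219) in WT and 82.0 CPM (54.9-118) in ATG5 KO, and it was at 0 in 1354 and 1561 B cells. Immune sub-cluster 13.1 of this class had like levels in both libraries (119 and 122 CPM), while sub-cluster 13.2 had 179 CPM in 16 WT cells, 11 of its 20 UMIs in 1 cell, and 15.1 CPM in 19 ATG5 KO cells.

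Nqo1, the quinone reductase, was higher in ceiling-like than in floor-like LECs and higher in venous-like than in other BECs. Cycling and unnamed LECs are not compared here. LECs had 4.86 times (3.35-7.28) the level of BECs in WT and 9.55 times (5.91-16.2) in ATG5 KO. Its level in the WT library was 61.6 CPM (53.2-70.9, 194 UMIs) in ceiling-like, 39.5 CPM in medullary or paracortical-like and 13.0 CPM (13 UMIs) in floor-like LECs. Floor-like cells thus had 0.211 times (0.111-0.370) the ceiling-like level. Venous-like BECs stood at 104 CPM in WT and 87.3 CPM in ATG5 KO, against 2.20 CPM in the other WT BECs, and immune cells at 1.13 and 1.64 CPM. In the ATG5 KO library ceiling-like LECs stood at 138 CPM (108-174, 71 UMIs), 2.24 times (1.68-2.95) the WT level, and 48.6% of these cells held an Nqo1 UMI against 29.5% in WT. Thinned to 3000 UMIs per cell the shares were 25.8% and 15.1%, and of B cells, which had a median of 2700 UMIs against 7977.5 in ceiling-like ATG5 KO cells, 0.192% held Nqo1 (0.295% in WT). The ratio was 2.09 (1.33-3.18) among male-like and 2.62 (1.63-4.17) among female-like ceiling-like cells. The sub-clusters within the class gave 1.43 (0.928-2.18) in sub-cluster 7, 1.61 (0.817-3.06) in sub-cluster 2 and 2.99 (1.49-5.73) in sub-cluster 3, while sub-clusters 5 and 6, with 85 and 88 WT cells, had 4 and 0 ATG5 KO cells. In medullary or paracortical-like LECs the ratio was 0.985 (0.560-1.75), and over all LECs 1.43 (1.14-1.78).

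Txnrd1, Gclm and Srxn1 had ratios between the libraries whose intervals include 1 in LECs. Txnrd1, the cytosolic thioredoxin reductase, stood at 147 CPM in ceiling-like, 102 CPM in floor-like and 85.4 CPM in medullary or paracortical-like WT LECs, and at 133 and 122 CPM over WT and ATG5 KO LECs, a ratio of 0.917 (0.779-1.08). Its ratio was 1.51 (1.07-2.14) in medullary or paracortical-like LECs, 0.766 (0.573-1.01) in ceiling-like LECs, 1.19 (1.01-1.42) in BECs and 1.26 (1.10-1.44) in immune cells. Monocytes or macrophages held 12 UMIs in 28 WT cells and 49 in 49 ATG5 KO cells, a ratio of 2.25 (1.18-4.65). Gclm, the modifier subunit of the glutathione synthesis enzyme, stood at 49.6 and 61.1 CPM in LECs, a ratio of 1.23 (0.968-1.56), and at 1.27 (0.974-1.66) and 1.08 (0.917-1.29) times the WT level in BECs and immune cells; all 3 intervals include 1. Arterial-like BECs stood out for Gclm, with 6 UMIs in 39 WT and 16 in 28 ATG5 KO cells, a ratio of 3.10 (1.15-9.66).

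Srxn1, the sulfiredoxin that repairs over-oxidised peroxiredoxins, was the scarcest of the enzymes. LECs stood at 13.2 CPM (76 UMIs) in WT and 12.0 CPM (19 UMIs) in ATG5 KO, a ratio of 0.907 (0.518-1.52). In BECs it was 9.09 CPM (27 UMIs) and 17.1 CPM (45 UMIs), a ratio of 1.88 (1.14-3.15), with 2.04 (1.07-4.03) among male-like and 0.965 (0.264-3.85) among female-like cells. Of the 45 UMIs, 12 were in a group of BECs led by Cxcl9 and Cxcl10 that had 58 ATG5 KO cells and 1 WT cell (31.8 CPM in ATG5 KO), and 13 in tip-like capillary cells, which stood at 8.92 CPM in WT and 25.9 CPM in ATG5 KO. B cells of both libraries held 0 Srxn1 UMIs.

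Counted over the genes with at least 20 UMIs in both libraries together, 4.32% of 11646 genes were at least 2-fold higher and 5.94% at least 2-fold lower in ATG5 KO than in WT LECs. All 9 genes passed this minimum; 1 was higher, Hmox1, and 4 were lower, Mt1, Mt2, Duox2 and Duoxa2. The genotype contrast entered the choice of the genes, so nothing is read from this count. In ceiling-like LECs 1 of 7 genes, Nqo1, was higher (4.68% of all genes) and 1, Duoxa2, lower (6.05%). In medullary or paracortical-like LECs 0 of 6 were higher (3.75%) and 2, Mt1 and Mt2, lower (4.73%). In BECs 0 of 7 were higher (2.12%) and the same 2 lower (3.09%), and in immune cells 0 of 6 passed in either direction (2.41% and 1.99%). Between LECs and BECs, 12.6% of genes in WT and 11.8% in ATG5 KO were at least 2-fold higher in LECs, and 11.2% and 11.5% lower. Higher in LECs were Mt1, Mt2, Nqo1, Duox2 and Duoxa2 of 9 genes in WT, and Mt1, Mt2, Hmox1 and Nqo1 of 7 in ATG5 KO.

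**Figure D3:**
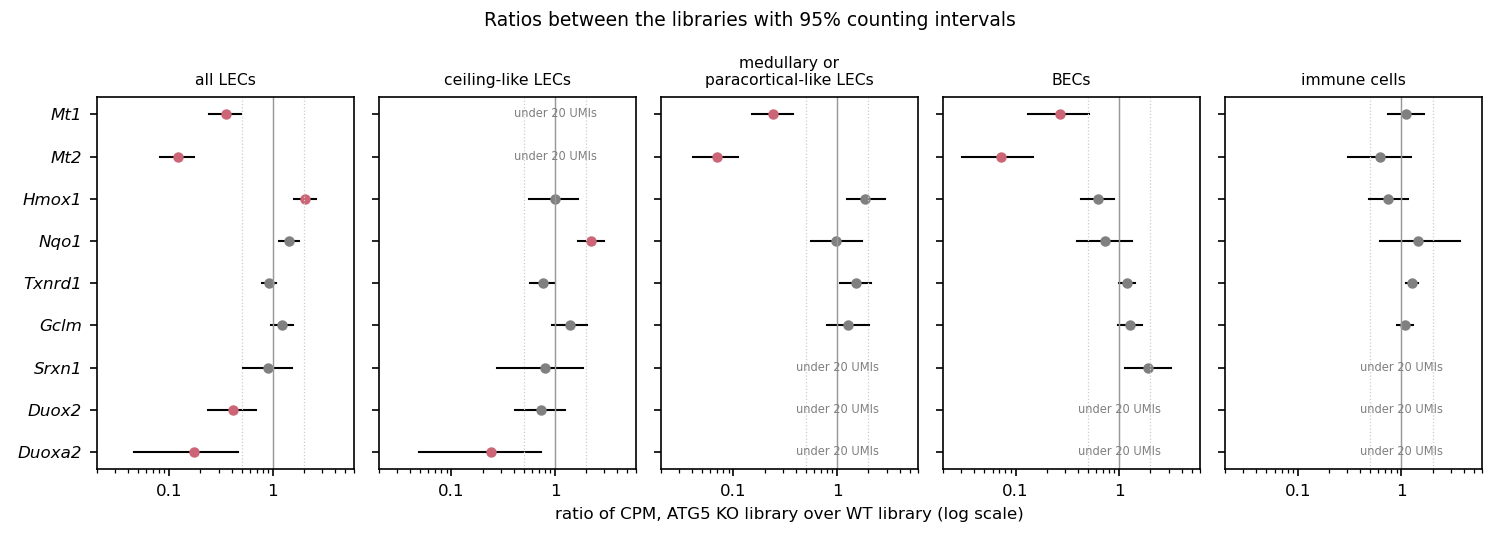
Points give the ratio of CPM in the ATG5 KO library to that in the WT library on a log scale for each gene in 5 cell groups, with 95% counting intervals; dotted lines mark 2-fold, red points lie at or beyond it, and genes under 20 UMIs in the group are named as such. Mt1 has a ratio of 0.353 in LECs, 0.270 in BECs and, within its interval, about 1 in immune cells, and Nqo1 is higher in ceiling-like LECs (2.24).

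Duox2 and Duoxa2 were genes of LECs and, within them, of the ceiling. LECs held 149 of 155 Duox2 UMIs and 84 of 88 Duoxa2 UMIs of the WT library. Ceiling-like WT cells stood at 42.2 CPM (133 UMIs) for Duox2 and 24.1 CPM (76 UMIs) for Duoxa2, medullary or paracortical-like cells at 7.91 and 1.58 CPM, and the 124 floor-like cells at 0 for both, which allows up to 2.42% of cells with a UMI and a ratio to ceiling-like cells of at most 0.0712 and 0.125. Free RNA of the WT library held 5.29 CPM of Duox2 and 1.76 CPM of Duoxa2, so the medullary or paracortical-like values lay near that level. BECs held 2 Duox2 UMIs and 0 Duoxa2 UMIs in 632 cells. Of the 91 WT LECs with an Mt2 UMI 1 held Duox2, against 13.3% of the other LECs.

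Within the ceiling-like class both genes were highest in sub-cluster 7, 48 WT and 25 ATG5 KO cells led by Igfbp5, Lpl, Lcn2 and Adamtsl1 among other genes. WT cells of this group stood at 103 CPM (73.9-140) for Duox2 and 108 CPM for Duoxa2, against 33.4 and 12.0 CPM in the other ceiling-like WT cells, which is 3.08 times (2.08-4.50) and 9.00 times (5.59-14.6) as high. The 9 genes had been kept out of the genes used for clustering, but genes that vary with them had not, so this too is a description. Hmox1 and Nqo1 were high in the same group, at 75.3 and 146 CPM, 2.76 times (1.75-4.27) and 2.95 times (2.13-4.04) the other ceiling-like cells. In the ATG5 KO library Hmox1 stood at 37.4 CPM in this group and 30.5 CPM in the other ceiling-like cells, 1.23 times (0.396-3.57) as high, and Nqo1 at 208 and 97.6 CPM, 2.13 times (1.30-3.52) as high. In WT, Txnrd1 (0.762, 0.549-1.04), Gclm (1.14, 0.684-1.82) and Srxn1 (1.68, 0.713-3.55) had ratios whose intervals include 1. In that WT comparison 6.62% of genes were at least 2-fold higher and 7.53% lower, and 4 of 7 of the genes were higher and 0 lower. The group was picked by Adamtsl1, which the marker lists place with Duox2 and Duoxa2, so nothing is read from this count.

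Both genes were lower in the LECs of the ATG5 KO library, and the Duox2 ratio was nearer 1 within ceiling-like cells. Over all LECs Duox2 stood at 25.9 CPM in WT and 10.7 CPM in ATG5 KO (17 UMIs, 5 of them in 1 cell), a ratio of 0.414 (0.235-0.686), and Duoxa2 at 14.6 and 2.52 CPM (4 UMIs), a ratio of 0.173 (0.0460-0.459). Within ceiling-like cells the ratio was 0.735 (0.409-1.24) for Duox2, an interval that includes 1, and 0.241 (0.0487-0.732) for Duoxa2, from 76 and 3 UMIs. In sub-cluster 7 it was 0.622 (0.298-1.21) for Duox2 and 0.0989 (0.0116-0.380) for Duoxa2, from 43 and 2 UMIs. Detection of the pair overlapped. In WT LECs 27.4% of 84 Duox2-positive cells held Duoxa2, against 3.32% of the others, and in sub-cluster 7 62.5% of 16 cells against 15.6%. In the ATG5 KO library 2 of 8 Duox2-positive LECs held Duoxa2. At equal depth of 3000 UMIs per cell, with 19 and 6 shallower cells left out, the share of ceiling-like cells with a Duox2 UMI was 8.79% in WT and 9.09% in ATG5 KO, against 18.3% and 9.72% before thinning, so the share gives no order between the libraries.

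**Figure D4:**
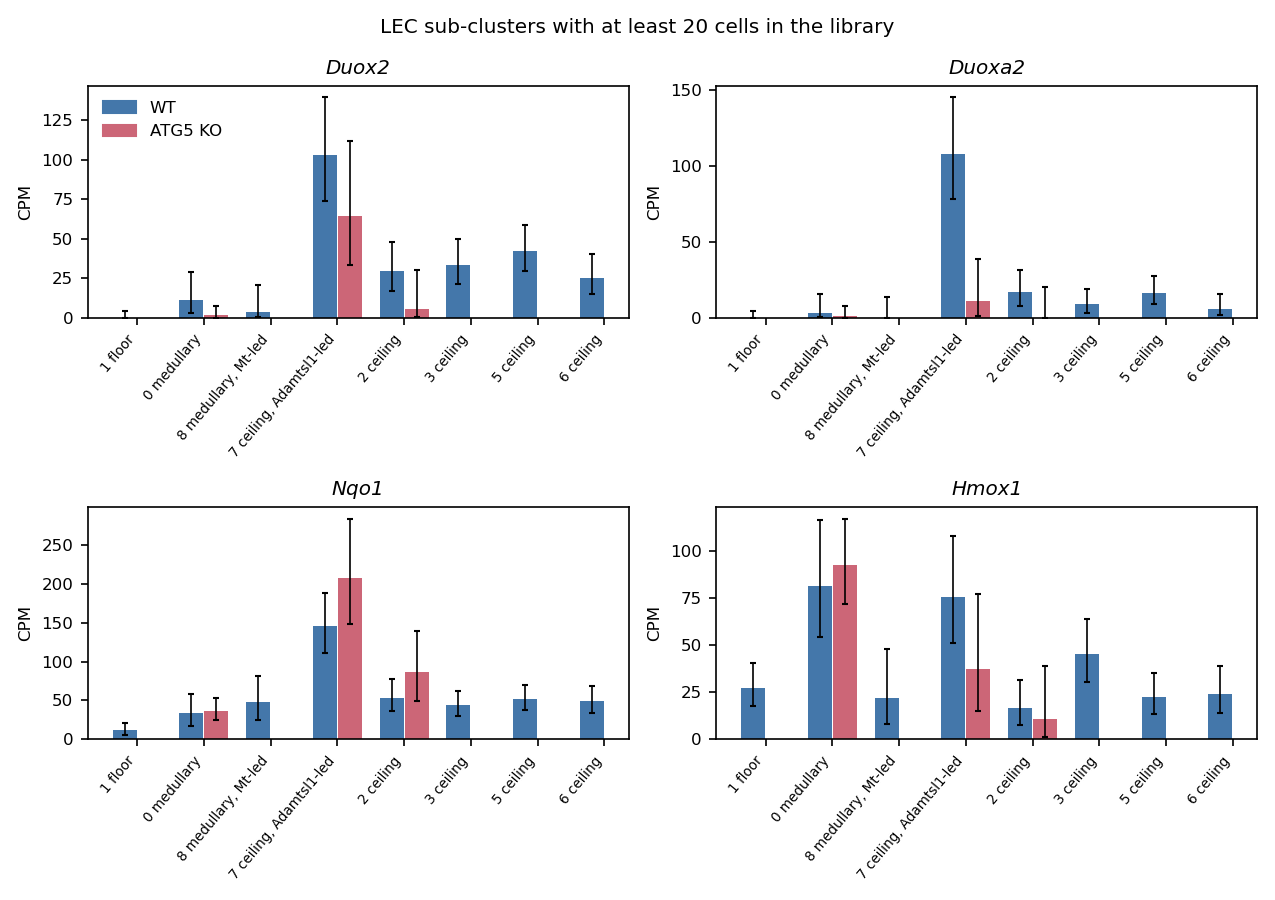
Bars give CPM of Duox2, Duoxa2, Nqo1 and Hmox1 in floor-like, ceiling-like and medullary or paracortical-like LEC sub-clusters for each library, with 95% Poisson intervals. A bar is drawn where the library had at least 20 cells of the sub-cluster. Cycling and unnamed sub-clusters are not drawn. Among those drawn, sub-cluster 7 has the highest WT level of Duox2, Duoxa2 and Nqo1 (103, 108 and 146 CPM). Hmox1 is high in sub-cluster 0 of both libraries and sub-cluster 7 of WT.

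Likeness of pattern was measured as Pearson's r of log2(CPM + 10) over 56 points, each a class or sub-cluster of at least 20 cells in 1 library; the points share libraries and depth, some overlap, and r is a description. Over genes with at least 200 UMIs the pattern most like that of Mt1 was that of Mt2 (r = 0.79), followed by Kazn (0.69), Il33 (0.68), Cxcl16 (0.65) and Bri3 (0.59). Hmox1 was most like Lamp1 (0.75), Rab1a (0.73), Acp2 (0.70), Pnp (0.69) and Ifitm3 (0.68). Duox2 was most like Ppl (0.87), Pkhd1l1 (0.85), Ntn1 (0.84), Mfap2 (0.82) and Ccdc3 (0.82); Duoxa2, with 92 UMIs under that minimum, gave 0.88 and Nqo1 0.78. Among the 9 genes themselves Mt1 had r between -0.19 (Duoxa2) and 0.32 (Hmox1) with the 7 others besides Mt2. Within floor-like WT cells, 76.9% of 65 Mt1-positive cells held Mt2, against 28.8% of the rest.

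The other genes of the same pathways are counted against all 11646 genes, of which 4.32% were at least 2-fold higher and 5.94% lower in ATG5 KO LECs. Of 34 NRF2 targets with at least 20 UMIs in LECs, 2 were at least 2-fold higher in ATG5 KO, Hmox1 and the microsomal glutathione transferase Mgst1 (135 against 67.3 CPM, 2.01, 1.69-2.38), and 1 lower, the cystine transporter Slc7a11 (0.340, 0.0667-1.09). Their median log2 ratio was 0.12 against 0.03 over all genes. The most abundant of them, the ferritin chain Fth1, the peroxidase Prdx1 and the autophagy receptor Sqstm1, had ratios of 0.822 (0.795-0.849), 1.01 (0.935-1.10) and 0.858 (0.776-0.947). In ceiling-like LECs Gstm1 (190 against 87.3 CPM, 2.18, 1.71-2.75) and Mgst1 (190 against 76.5 CPM, 2.49, 1.95-3.16) were higher along with Nqo1. These were 3 of 31 targets tested (4.68% of all genes were higher), with a median of -0.01. The make-up of the class enters these ratios, since sub-cluster 7 gave 48 of 383 WT and 25 of 72 ATG5 KO cells. Sub-clusters 5 and 6 gave 85 and 88 WT and 4 and 0 ATG5 KO cells. Among 11 NRF2 regulators none passed 2-fold in LECs; Nfe2l2, which encodes NRF2, had a ratio of 0.955 (0.834-1.09) and Maff 0.520 (0.440-0.611), Cul3 0.871 (0.779-0.972), and the median log2 ratio was -0.41.

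Of 34 antioxidant enzymes, a list that shares genes with the NRF2 targets, 1 was higher, the methionine sulfoxide reductase Msra (26.5 against 13.0 CPM, a ratio of 2.03), with a median log2 ratio of 0.18; Txnip and Gpx1, the most abundant besides Prdx1, had ratios of 0.917 and 0.756. Among 8 NADPH oxidase genes and partners Nox4 was higher, at 31.5 against 13.4 CPM (2.36, 1.62-3.41), and Duox2 and Duoxa2 were lower. Rac1 and Cyba had ratios of 1.003 and 0.743, and the median was -0.21. The make-up of the LECs enters these ratios too. Within ceiling-like LECs 1 of 7 of these genes was at least 2-fold higher and 1 lower (4.68% and 6.05% of all genes). Within medullary or paracortical-like LECs 0 of 5 passed in either direction (3.75% and 4.73%). Over all LECs, none of 25 genes of zinc and copper handling differed by 2-fold, with a median of 0.17. The most abundant, Slc39a1, Atox1 and Slc39a7, had ratios of 0.941, 0.983 and 1.04. Of 18 genes of heme and iron Hmox1 alone did, with a median of 0.05, and Ftl1 and Ireb2 stood at 1.02 and 1.15. The other 2 listed metallothionein genes had under 20 UMIs in LECs. Across niches of the WT library, 4 of 24 zinc and copper genes were at least 2-fold higher in floor-like than in ceiling-like LECs and none lower, beside 10.6% and 12% of all genes. They were the zinc exporter Slc30a1 (82.1 against 37.5 CPM, 2.19, 1.63-2.93), the importers Slc39a4 (2.28, 1.78-2.92) and Slc39a14 (2.39, 1.82-3.12), and the copper pump Atp7a (2.00, 1.54-2.60). The median log2 ratio of these 24 genes was 0.22 against -0.02 over all genes.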

How the data were processed

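Sorted cells of 1 WT and 1 ATG5 KO pool of nodes were profiled on BD Rhapsody beads, which capture transcript 3′ ends. Per the file headers, the authors used the BD Rhapsody WTA Analysis Pipeline 1.11 with intronic reads not excluded, and mm10 is named in the submitters' processing notes. The deposited values are whole-number counts of error-corrected molecules (UMIs) for each pair of cell barcode and gene, unfiltered and not normalized; the libraries held 23649554 and 23089918 UMIs. Cells were called here at the bend of the cumulative UMI curve (4078 and 4365 barcodes), kept with at least 200 genes and at most 25% mitochondrial UMIs, cleared of 27 and 29 doublets (Scrublet in scanpy 1.11.5) and clustered together with the 9 genes left out of the 2000 variable genes. LECs, BECs and mixed immune clusters were clustered again, and small clusters of mixed lineage left out. Classes were named from 31 marker lists, with thresholds set after the clusters were seen. CPM is a class's UMIs per 1000000, mitochondrially encoded genes left out; 95% intervals are exact Poisson (CPM), Clopper-Pearson (shares) and conditional binomial (ratios), and take UMIs as independent. A count of 0 was set to 3 in a ratio, and no ratio is given where that would turn its direction. With 1 library per genotype there is no test. Ratio code was tested on simulated data. Gene lists, members and marker lists were chosen with earlier results of these data known. From each of 10 gene lists, the 3 genes with the most UMIs in LECs and up to 4 that differed by 2-fold were candidates for naming; genes named for niches and the other names outside this rule were chosen after their values were seen. Alternatives covered the mitochondrial limit, doublets, weighting, totals, raw molecules, clustering, sex-linked transcripts and free RNA. One further gene of a list is not reported here.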

Additional observations from a re-analysis of the deposited data

Results flagged for a closer look

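Hmox1 lay in opposite directions in the 2 endothelial lineages, and was picked out because the counting intervals of both ratios lie away from 1. The ratio of the ATG5 KO to the WT library was 2.04 (1.60-2.60) in LECs, from 190 WT and 107 ATG5 KO UMIs, and 0.620 (0.428-0.888) in BECs, from 89 and 49 UMIs. The difference between the lineages was not tested, since each genotype gave 1 library. In LECs the ratio was 1.88 (1.25-2.88) within medullary or paracortical-like cells, 1.14 (0.728-1.83) within sub-cluster 0 of that class and 0.990 (0.556-1.66) within ceiling-like cells.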

How the results depend on the processing

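No paired analysis was possible because each genotype gave 1 library. Of 128 values of the main comparisons under other settings, 110 stayed within the counting interval of the reported value (gene counts within 1.5 times) and 18 did not. Of 526 ratios under other settings 25 lay on the other side of 1. Of these 21 belonged to ratios whose interval includes 1, and 2 to ratios away from 1 but under 2-fold, those among female-like cells for Hmox1 in medullary or paracortical-like LECs (0.946) and Srxn1 in BECs (0.965). The last 2 belonged to ratios past 2-fold. With the mitochondrial limit at 10%, the medullary or paracortical-like ratio of ATG5 KO to WT became 1.06 for Mt1 and 1.25 for Mt2, since 13 WT cells with 279 metallothionein UMIs were then classed as floor-like. The Mt1 ratio in LECs was 0.512 among male-like cells, 0.554 without sub-cluster 13, 0.506 without sub-clusters 8 and 13 and 0.739 without the sub-clusters almost wholly of the WT library. That of Mt2 was 0.177 among male-like and 0.267 among female-like cells, 0.178 without the top 1% of cells, 0.226 and 0.391 without those sub-clusters and 0.212 without the ones almost wholly of WT. Leaving out sub-clusters and shared barcodes was chosen after seeing the data. The Hmox1 ratio in LECs was 1.36 with equal class weights, and the Duox2 ratio 0.220 without the top 1% of cells. For Mt2, floor-like over ceiling-like WT cells gave 426 without the top 1% of cells and 58.1 without sub-cluster 13, also when sub-cluster 8 was left out too. Genes at least 2-fold higher in ATG5 KO LECs numbered 503, or 253 with at least 50 UMIs and 1967 with no minimum. Lower genes numbered 692, or 407 with at least 50 UMIs and 958 with no minimum, so the balance of directions turned without a minimum. The LECs of the ATG5 KO library held fewer UMIs, with 3 UMIs equal to 1.89 CPM against 0.521 CPM in WT. Without a minimum, a gene of few UMIs thus passed as higher more easily than as lower. Beyond the changes of make-up and the depth named here, the causes were not tested. The 8 floor-like ATG5 KO cells, with 3 UMIs equal to 45.4 CPM, limit every floor comparison between the libraries.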
